A study of Mus musculus with 12 samples.

Results

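Receptors, lectins and a chemokine by which alternatively activated macrophages are commonly recognised were followed in subcutaneous Renca tumors of mice that did or did not carry a further tumor in the kidney. The set comprised Mrc1, Cd163, Stab1, Folr2, Mgl2, Clec10a, Clec7a, Msr1, Il4ra and Ccl24, chosen by name as genes of this state rather than by their values, with earlier results of these data known. Each was found through its Ensembl identifier, so 10 of 10 were among the 14496 genes of the deposited table and 10 of 10 were among the 14008 genes tested. None of the 10 passed the test across all genes. The group was not uniform: Clec10a, Clec7a, Mgl2 and Il4ra varied together from tumor to tumor over all 12, Cd163 and Folr2 correlated with each other, and Clec10a spanned the widest range of levels and Stab1 the narrowest.

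RNA was sequenced from 12 whole subcutaneous tumors, tumor cells and stroma together, of Renca, a renal carcinoma line of BALB/C mice; all were collected on day 14 after inoculation. In 6 of them a concomitant intra-kidney (IK) tumor, described by the submitters as immunosuppressive, was present, and 6 grew alone. Both groups had the same strain, cell line and day, and no other treatment is named. Nothing in the labels ties a tumor to its own mouse. The p-values therefore speak for the spread between these 12 samples, which may be technical in part, and a single line limits the model to that line.

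Macrophages exposed to the type 2 cytokines IL-4 and IL-13 enter the state called alternative activation. Both cytokines act through receptors containing the chain encoded by Il4ra, and the transcription factor STAT6 then switches on genes such as the mannose receptor Mrc1 and the galactose-type lectins Mgl2 and Clec10a. Many tumors contain macrophages with such transcripts. The scavenger receptors Msr1, Stab1 and Cd163 clear modified lipoproteins, matrix fragments and haemoglobin complexes, and are also used as markers of these cells, although Stab1 is made by some endothelial cells and Mgl2, Clec10a and Clec7a by dendritic cells as well. In whole tumors, fewer cells of a type and less RNA per cell cannot be told apart.

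Promoter sequences are shown for 2 pairs of members that varied together in these tumors, to let the regions in front of them be compared. They run 5′ to 3′ from 250 bases before to 50 bases after a RefSeq start site (build GRCm38.p6), and 7 of the 10 members had an entry; Clec10a, Msr1 and Ccl24 are named only. Capitals mark matches to any of 5 motifs searched on both strands: TTCNNNNGAA (the spacing preferred by STAT6), TTCNNNGAA (the spacing of other STAT factors), GAGGAA (the core bound by the myeloid factor PU.1), TGANTCA (AP-1) and GAAANNGAAA (interferon response factors). The first pair is Clec7a (chr6:129472730-129473029, minus strand, 1 of 2 start sites) and Mgl2 (chr11:70130107-70130406, plus strand).
Clec7a: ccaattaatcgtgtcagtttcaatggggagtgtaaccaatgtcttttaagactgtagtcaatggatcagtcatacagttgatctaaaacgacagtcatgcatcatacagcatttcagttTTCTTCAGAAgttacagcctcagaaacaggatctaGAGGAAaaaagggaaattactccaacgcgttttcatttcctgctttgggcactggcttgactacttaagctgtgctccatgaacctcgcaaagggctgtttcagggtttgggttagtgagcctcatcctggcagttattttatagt
Mgl2: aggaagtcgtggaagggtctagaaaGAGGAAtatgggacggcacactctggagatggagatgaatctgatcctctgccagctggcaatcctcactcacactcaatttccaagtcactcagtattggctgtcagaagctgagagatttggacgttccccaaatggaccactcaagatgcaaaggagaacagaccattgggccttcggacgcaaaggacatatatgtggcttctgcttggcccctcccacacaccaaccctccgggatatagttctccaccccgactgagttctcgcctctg
The second pair is Cd163 (chr6:124304401-124304700, plus strand) and Folr2 (chr7:101845282-101845581, minus strand, 1 of 2 start sites).
Cd163: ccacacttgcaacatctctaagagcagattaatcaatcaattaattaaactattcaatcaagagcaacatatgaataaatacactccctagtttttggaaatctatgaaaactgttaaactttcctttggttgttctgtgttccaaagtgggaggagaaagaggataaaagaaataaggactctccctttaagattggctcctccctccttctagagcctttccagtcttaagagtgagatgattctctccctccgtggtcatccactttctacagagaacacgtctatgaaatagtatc
Folr2: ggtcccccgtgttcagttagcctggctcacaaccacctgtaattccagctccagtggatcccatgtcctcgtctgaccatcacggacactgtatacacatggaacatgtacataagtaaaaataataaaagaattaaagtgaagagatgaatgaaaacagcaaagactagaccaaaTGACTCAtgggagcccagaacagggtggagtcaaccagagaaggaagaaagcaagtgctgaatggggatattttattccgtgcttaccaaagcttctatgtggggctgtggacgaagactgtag
In Clec7a, TTCNNNNGAA began 131 bases before the start and GAGGAA 96 bases before it. Mgl2 held GAGGAA 225 bases before its start, the Folr2 promoter shown held TGANTCA 74 bases before, and Cd163 held none of the 5. The other Folr2 start site held none either, and at the other Clec7a start site, the same matches lie 125 and 90 bases before. Of 32851 mouse promoters of this length, 6.95% held TTCNNNNGAA, 8.30% TTCNNNGAA, 28.3% GAGGAA, 7.81% TGANTCA and 3.44% GAAANNGAAA. The matches in capitals do not overlap each other. A match is a run of letters in this window and says nothing of binding.

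Mrc1 was the most abundant member per transcript length and Ccl24 the least. On the scale of reads per kilobase of exon, scaled to depth (RPKM, geometric mean over 12 tumors, exon lengths from GENCODE M21), the levels were 62.3 for Mrc1, 40.3 for Mgl2, 26.4 for Stab1, 25.1 for Msr1, 22.0 for Il4ra, 16.8 for Folr2, 16.5 for Clec7a, 5.06 for Clec10a, 2.98 for Cd163 and 1.72 for Ccl24. Mrc1 stood above Mgl2, Mgl2 above Stab1 and Clec7a above Clec10a in 12 of 12 tumors. Stab1 and Msr1 differed by 0.07 ± 0.21 (log2 RPKM, SD over 12 tumors) and Folr2 and Clec7a by 0.03 ± 0.60, so neither pair was separated beyond the spread. Clec10a and Cd163 changed order as well, with Clec10a higher in 9 of 12 tumors. Levels below are log2 CPM (reads scaled to depth, on a log2 scale), and differences are tumors with an IK tumor minus tumors alone.

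The 2 galactose-type lectins, which take up glycans carrying galactose or N-acetylgalactosamine, both had lower means with an IK tumor, Clec10a by more than Mgl2. Clec10a levels were 3.02 at the lowest, 3.46 at the median and 4.68 at the highest with an IK tumor, against 3.60, 4.21 and 4.99 alone. In 5 of the 6 tumors with an IK tumor Clec10a lay below every tumor alone, and replicate 2 was the exception at 4.68. The difference was -0.68 (SE 0.28, 95% interval -1.28 to -0.071, 6 tumors in each group), a ratio of 0.626 between geometric means. With limma, its p was 0.0312 before and 0.432 after Benjamini-Hochberg adjustment over 14008 genes, and it did not pass. Clec10a was the only member with an unadjusted p under 0.05, 1 of 10 in the lower direction and 0 of 10 in the higher, where 5.62% of all genes had such a p in the lower direction and 5.86% in the higher. After adjustment 0 genes were called in either direction (0% lower and 0% higher). A share of 1 in 10 with so few members is not a result about the set.

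Mgl2 ran from 6.06 with a median of 6.24 to 6.77 with an IK tumor, and from 6.14 with a median of 6.55 to 6.82 alone. The groups overlapped over most of their range, and the difference was -0.20 (95% interval -0.50 to 0.10, limma adjusted p = 0.541). Mgl2 and Clec10a are near relatives. Of the distinct stretches of 50 bases in their transcripts, 270 occur in both. These were 12.2% of the stretches of Mgl2 and 8.49% of those of Clec10a, which is not a share of exon bases. How reads matching both were counted is not given in the sources used here, so part of either count could belong to the other gene.

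**Figure D1:**
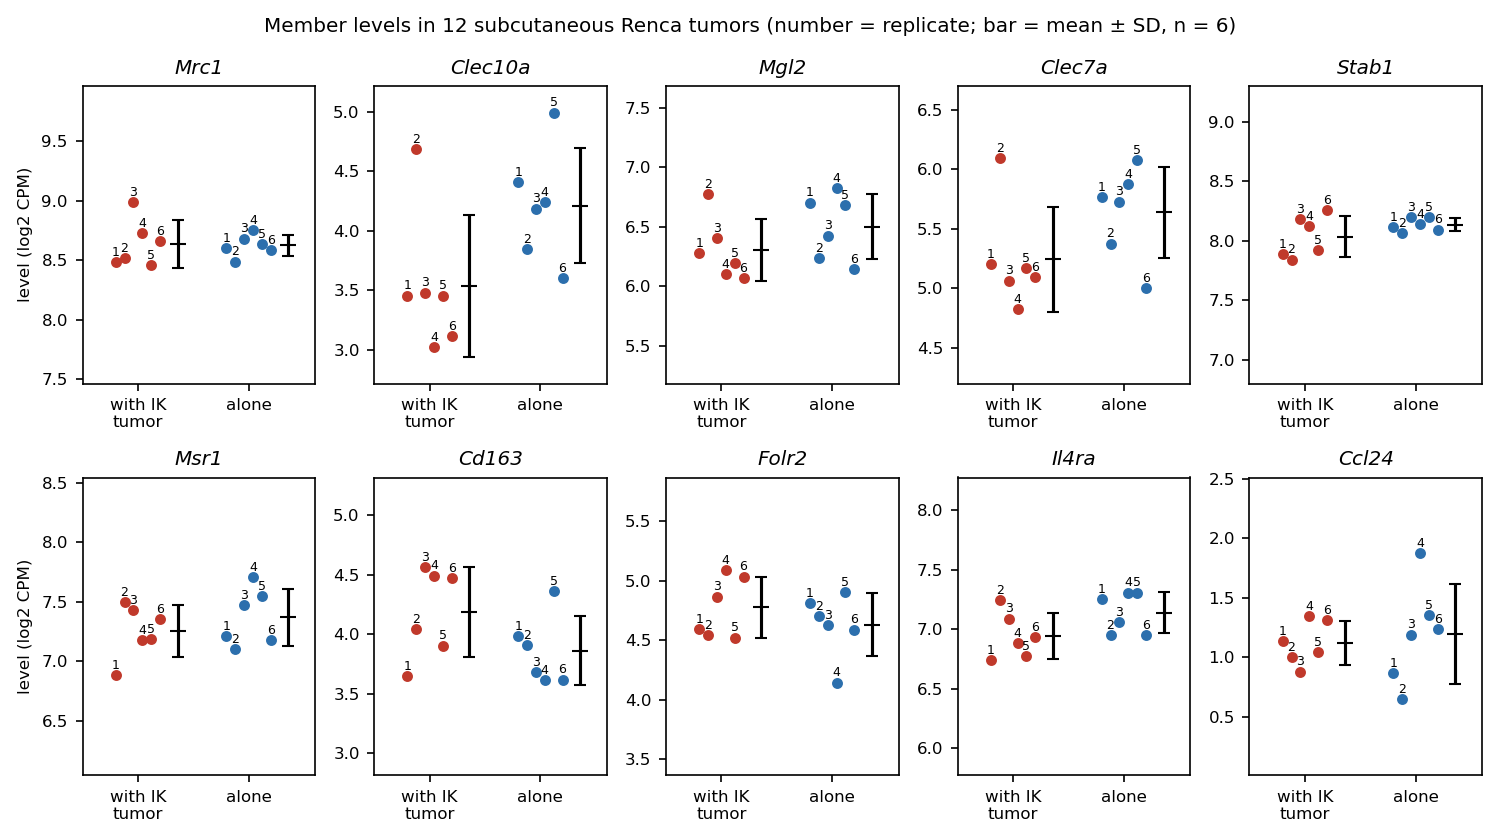
Level of each of the 10 members (log2 CPM, vertical axis, the same span of 2.5 log2 units in each panel) in 6 tumors with an IK tumor (red) and 6 alone (blue), numbered by replicate, with the mean and SD at the right of each group. In the Clec10a panel replicate 2 of the IK group stands at 4.68, and the other 5 lie at or below 3.48, under the lowest tumor alone at 3.60.

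Clec7a encodes Dectin-1, the receptor for fungal beta-glucan, which signals through the kinase Syk and the adaptor Card9. Its levels with an IK tumor were 4.83 at the lowest, 5.13 at the median and 6.10 at the highest, and alone 5.0, 5.75 and 6.08. Of the 6 tumors with an IK tumor 5 lay below the median of tumors alone, and replicate 2 was the highest of all 12. The difference was -0.39 (SE 0.21, 95% interval -0.86 to 0.067, limma adjusted p = 0.467). Of the 15 tested genes of Dectin-1 signalling, 11 had lower and 4 higher means, with a median of -0.07 and 0 called. Syk differed by -0.17 (limma adjusted p = 0.626) and Card9 by -0.07 (adjusted p = 0.463). The extremes were the exchange factor Vav1 at -0.38 and the transcription factor Nfatc2 at -0.33 on one side, and the adaptor Bcl10 and the NF-kB subunit Rel, both at 0.07, on the other.

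Il4ra, the shared chain of the IL-4 and IL-13 receptors, ran from 6.74 with a median of 6.91 to 7.25 with an IK tumor, and from 6.95 with a median of 7.16 to 7.31 alone. In 4 of the 6 tumors with an IK tumor it lay below every tumor alone. The difference was -0.19 (SE 0.095, 95% interval -0.40 to 0.013, unadjusted p = 0.0634, limma adjusted p = 0.447). Of 13 tested genes of IL-4 and IL-13 signalling 11 had lower means, with a median of -0.12 and 0 called. Its partner chains went opposite ways in their means: Il2rg, the common gamma chain that lymphocytes also carry, differed by -0.72 (adjusted p = 0.432), and Il13ra1 by 0.05 (adjusted p = 0.647). The downstream factor Stat6 was flat at -0.02 (adjusted p = 0.746), the phosphatase Ptpn6 differed by -0.34 and the kinase Jak1 by 0.02. Il4, Il13 and Il13ra2 were not among the genes analysed here.

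Among the 3 scavenger receptors of the set, Cd163 was the one with a higher mean with an IK tumor. Cd163 binds complexes of haemoglobin and haptoglobin. It ran from 3.65 with a median of 4.26 to 4.56 with an IK tumor, and from 3.61 with a median of 3.79 to 4.36 alone. Replicates 3, 4 and 6 of the IK group lay above every tumor alone, while replicate 1 lay near the bottom of both groups. The difference was 0.33 (SE 0.17, 95% interval -0.052 to 0.71, unadjusted p = 0.085, limma adjusted p = 0.464), at 654 to 1471 reads per tumor. Hp, the gene of haptoglobin, differed by -1.39 (adjusted p = 0.432), and 5 of 5 red cell genes stood higher in their means, with a median of 0.30 and 0 called, from the anion exchanger Slc4a1 at 0.13 and Hba-a2 at 0.24 to Hbb-bs at 0.32 and Hba-a1 at 0.34. The haemoglobin genes are near-identical copies, so their single values are uncertain. Red cell scores overlapped, from 2.97 to 3.45 with an IK tumor and from 2.69 to 3.39 alone, and the part of blood content in the Cd163 difference was not tested.

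Stab1 encodes stabilin-1, which takes up the matrix protein SPARC and acetylated lipoprotein. Its levels were 7.84 at the lowest, 8.02 at the median and 8.26 at the highest with an IK tumor, and 8.06, 8.13 and 8.20 alone. Tumors alone lay close together, and 3 tumors with an IK tumor lay below them and 1 above. The difference was -0.10 (95% interval -0.25 to 0.051, limma adjusted p = 0.539). Of Stab1's exon bases 1.09% overlap Nt5dc2 on the opposite strand, which lay near 3.6 log2 CPM in both groups (means of 3.59 and 3.60).

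Msr1, the class A scavenger receptor, ran from 6.88 with a median of 7.27 to 7.50 with an IK tumor and from 7.11 with a median of 7.34 to 7.71 alone. The difference was -0.12 (95% interval -0.38 to 0.14, limma adjusted p = 0.675), and the groups overlapped. Of 11 other scavenger receptor genes tested, 9 had lower means and 2 higher, with a median of -0.04 and 0 called. Their ends were Cd36, the fatty acid and thrombospondin receptor, at -0.73 and Cxcl16 at -0.21, against Scara5 at 0.02 and Ager at 0.07. Marco was not among the genes analysed here.

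Mrc1, the mannose receptor, was the member that differed least. Its levels were 8.46 at the lowest, 8.59 at the median and 8.99 at the highest with an IK tumor, and 8.49, 8.62 and 8.75 alone. Replicate 3 of the IK group, the highest, was the only tumor above those alone. The difference was 0.02 (SE 0.083, 95% interval -0.16 to 0.20, limma adjusted p = 0.941), at 20511 to 29743 reads per tumor. The interval covers ratios of 0.893 to 1.14. Of 19 other genes of the mannose receptor family and endocytic lectins, 15 had lower and 4 higher means, with a median of -0.27 and 0 called. Mrc2, the collagen-binding relative of Mrc1, also differed by -0.27 (adjusted p = 0.669). Clec9a and Clec12a, lectins of dendritic and myeloid cells, each differed by -0.68, and at the other end Asgr2 lay at 0.27 and Clec4e at 0.11.

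Folr2, the folate receptor beta of tissue-resident macrophages, ran from 4.52 with a median of 4.73 to 5.09 with an IK tumor and from 4.14 with a median of 4.67 to 4.90 alone. Replicates 4 and 6 of the IK group lay above every tumor alone. The difference was 0.15 (95% interval -0.15 to 0.44, limma adjusted p = 0.636). On the opposite strand Gm10602 covers 63.1% of the Folr2 exon bases, and strand handling is not given in the sources used here, so Folr2 counts are uncertain. Gm10602 itself lay at 0.54 ± 0.23 log2 CPM in the IK group and at 0.65 ± 0.17 in tumors alone (SD over 6). Of 8 other genes of folate receptors and transport 4 had lower and 4 higher means, with Izumo1r, a folate receptor relative found on regulatory T cells, at -2.14, Folr1 at -0.16 and Slc46a1 at 0.09, none called.

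Ccl24 encodes eotaxin-2, a chemokine for eosinophils that acts through Ccr3. It was the lowest member, with 98 to 231 reads per tumor. Levels ran from 0.88 with a median of 1.09 to 1.34 with an IK tumor and from 0.65 with a median of 1.21 to 1.87 alone. The tumors alone enclosed all those with an IK tumor, and the difference was -0.08 (95% interval -0.46 to 0.31, limma adjusted p = 0.861). The related eotaxin Ccl11 differed by -0.41 (adjusted p = 0.713). Only 5 of the 18 genes of the eotaxin and eosinophil list were analysed here, Ccl24 among them. Ccr3 and the granule genes Epx and Prg2 were not. The other 3 were Ear2 at -0.11, Il33 at -0.01 and Alox15 at 0.96 (adjusted p = 0.481).

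Over the set, 7 of 10 members had lower means with an IK tumor, with a median difference of -0.11, where 46.7% of all genes tested had lower means and the median was 0.01. The 20 pan-macrophage genes gave 20 lower means and a median of -0.18, from Mpeg1 at -0.46 and Aif1 at -0.43 to Fcgr3 at -0.03 and Cd14 at -0.0065. Among them Cd68 differed by -0.05, Csf1r by -0.12 and Adgre1 by -0.18. The pan-macrophage score, the mean log2 CPM of these genes, ran from 7.28 to 7.96 with an IK tumor and from 7.28 to 7.92 alone. None of these genes passed, and none was near 0, so macrophage transcripts were abundant in all 12 tumors.

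The size of the member differences depended on which tumors entered and with what weight. Without replicate 2 of the IK group, limma called 146 genes lower (1.04%) and 25 higher (0.178%), and still 0 of 10 members. The difference became -0.91 for Clec10a (adjusted p = 0.052), -0.56 for Clec7a (adjusted p = 0.0835), -0.25 for Il4ra (adjusted p = 0.114) and -0.29 for Mgl2 (adjusted p = 0.164). Leaving out replicate 5 or 6 of the tumors alone also moved Clec10a, to -0.52 (adjusted p = 0.766) and -0.80 (adjusted p = 0.198). Limma's array weights changed the weight of every tumor at once, to 0.322 for replicate 2 of the IK group, 0.481 and 0.480 for replicates 5 and 6 alone, and 0.706 to 1.87 for the others. With them 411 genes were called lower (2.93%) and 134 higher (0.957%), among them 1 member, Clec10a, at -0.83 (adjusted p = 0.0394). These p-values hold only given the tumors removed or the weights used.

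With the pan-macrophage score as a covariate, most of these differences were smaller. Clec10a then differed by -0.28 (95% interval -0.53 to -0.036, unadjusted p = 0.0279, limma adjusted p = 0.542), Clec7a by -0.08, Il4ra by -0.10, Mgl2 by -0.03 and Msr1 by -0.01. Cd163 stayed at 0.33 (limma adjusted p = 0.681), and Folr2 went from 0.15 to 0.10 (adjusted p = 0.886). The difference of Stab1 grew instead, from -0.10 to -0.13 (limma adjusted p = 0.663). The score is itself measured in these tumors and shares their libraries.

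**Figure D2:**
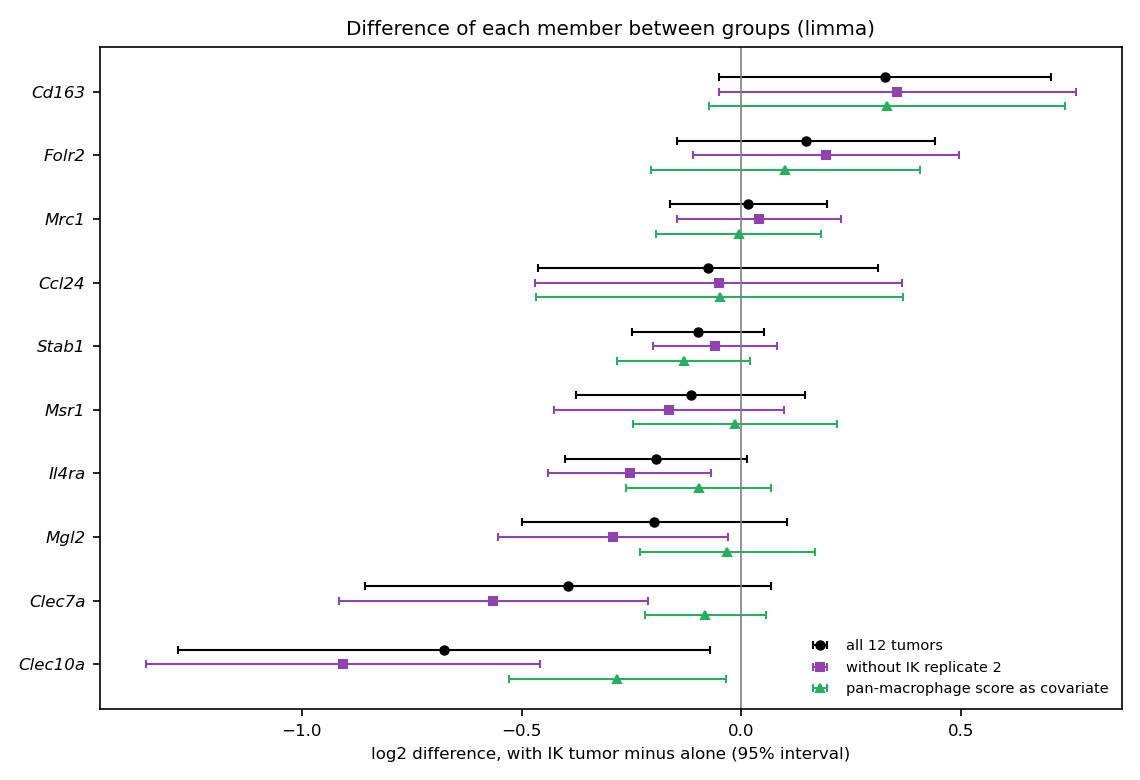
Log2 difference of each member, tumors with an IK tumor minus tumors alone, with its 95% interval from limma (horizontal axis), for all 12 tumors (black), without replicate 2 of the IK group (purple) and with the pan-macrophage score as a covariate (green). For Clec10a the black point lies at -0.68, the purple at -0.91 and the green at -0.28, while the Cd163 points stay between 0.33 and 0.36.

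The members did not vary as one. Of 45 pairs, 8 correlated over the 12 tumors with an adjusted p under 0.05 (permutation test with 100000 resamples, Benjamini-Hochberg over 45 pairs), all positively, and 7 of the 8 joined Clec10a, Clec7a, Mgl2, Il4ra and Msr1. The eighth joined Cd163 and Folr2. Members of a pair share each library, its depth and its cell makeup.

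Clec10a and Clec7a gave r = 0.958 and rho = 0.867 (adjusted permutation p = 0.0009 and 0.0109). Without the 2 tumors farthest from the median r was 0.933, and it was 0.975 among tumors with an IK tumor and 0.922 among those alone. Mgl2 gave r = 0.901 with Clec7a, 0.883 with Il4ra and 0.872 with Clec10a, with rho of 0.853, 0.811 and 0.839 (adjusted permutation p of r at most 0.00551). Il4ra gave r = 0.824 with Clec10a, 0.809 with Clec7a and 0.797 with Msr1, and rho = 0.853, 0.692 and 0.804. For Clec7a the adjusted permutation p of rho was 0.079. Without the 2 tumors farthest from the median of the partner these r of Il4ra were 0.741, 0.717 and 0.653. They were 0.703, 0.656 and 0.881 among tumors with an IK tumor, and 0.834, 0.876 and 0.715 among those alone.

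Cd163 and Folr2 gave r = 0.815 and rho = 0.790 (adjusted permutation p = 0.00747 and 0.0204), with 0.776 without the 2 tumors farthest from the median, 0.847 with an IK tumor and 0.765 alone. Their relations to the lectins did not pass over the 12 tumors: Folr2 gave r = -0.32 with Clec10a and -0.45 with Mgl2 (adjusted permutation p = 0.624 and 0.389), and Cd163 gave -0.21 with Clec10a and -0.23 with Clec7a (0.754 and 0.711). For Cd163 these join opposite signs in the groups, -0.35 and -0.39 with an IK tumor against 0.78 and 0.54 alone. So does Folr2 with Clec10a, at -0.67 with an IK tumor and 0.37 alone, while Folr2 with Mgl2 gave -0.58 and -0.21. These differences between the groups were not tested. Mrc1 and Stab1 gave r = 0.651 (adjusted permutation p = 0.103) and rho = 0.741 (0.0421), so they passed by rank only.

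**Figure D3:**
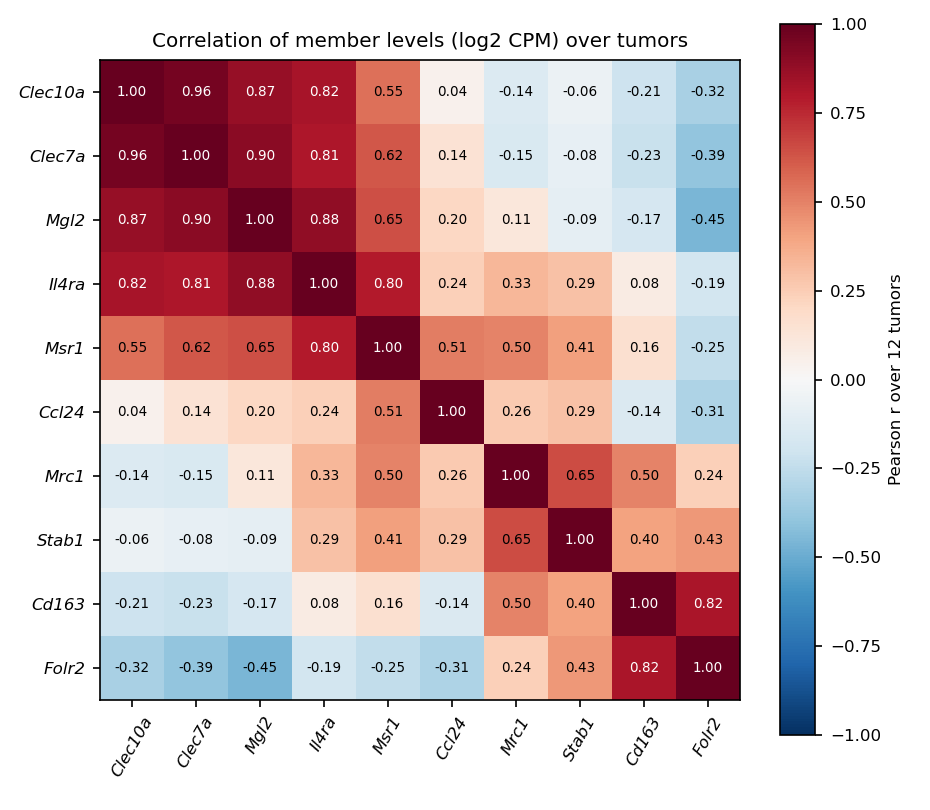
Pearson correlation r between the log2 CPM levels of each pair of members over 12 tumors, with colour from -1 (blue) to 1 (red). A block of high values joins Clec10a, Clec7a, Mgl2 and Il4ra (0.81 to 0.96), and Cd163 and Folr2 form a pair at 0.82.

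Clec10a, Clec7a and Mgl2 followed marker genes of several cell types, and no relation of Cd163, Folr2, Mrc1, Stab1, Msr1 or Ccl24 passed. Relations of the 10 members with 7 marker scores gave 70 in all, adjusted together. Tumors fell into separate clusters on the T cell score, so its relations are set aside. Of the other 60, 19 passed by r, each positive, in Clec10a, Clec7a, Mgl2 and Il4ra. Replicates 1, 3, 4, 5 and 6 of the IK group and replicate 6 alone were lowest on the T cell score. These tumors were also lowest in Clec10a, Clec7a, the pan-macrophage score (7.28 to 7.41, the others from 7.51) and the dendritic score (3.63 to 4.02, the others from 4.30). Relations between these values therefore share that division. With the pan-macrophage score, r was 0.969 for Clec7a (rho 0.930, adjusted permutation p of r 0.00035), 0.929 for Clec10a (rho 0.783, 0.000875), 0.824 for Mgl2 (rho 0.762, 0.0116) and 0.738 for Il4ra (rho 0.587, 0.03). By rank Il4ra did not pass, with an adjusted permutation p of rho of 0.125. Without the 2 tumors farthest from the median of the score these r were 0.948, 0.865, 0.745 and 0.601. Msr1 gave 0.601 (adjusted permutation p = 0.108), Ccl24 0.142, Stab1 -0.12, Cd163 -0.17, Mrc1 -0.19 and Folr2 -0.32. For Ccl24, Stab1, Cd163, Mrc1 and Folr2 these join opposite signs, negative with an IK tumor and positive alone, a difference that was not tested.

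Markers of dendritic cells, which can carry Clec10a, Mgl2 and Clec7a, moved with these genes as closely. The dendritic score, over 19 genes without the members, gave r = 0.972 with Clec10a (rho 0.930), 0.965 with Clec7a (rho 0.944) and 0.843 with Mgl2 (rho 0.839), with adjusted permutation p of 0.000233, 0.000233 and 0.00672. Within the groups the Clec10a relation was 0.979 with an IK tumor and 0.950 alone. The fibroblast score gave r = 0.900 with Clec10a, 0.895 with Clec7a and 0.873 with Mgl2 (adjusted permutation p of 0.000875, 0.0007 and 0.00296), so the tracking was not particular to macrophage or dendritic genes.

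**Figure D4:**
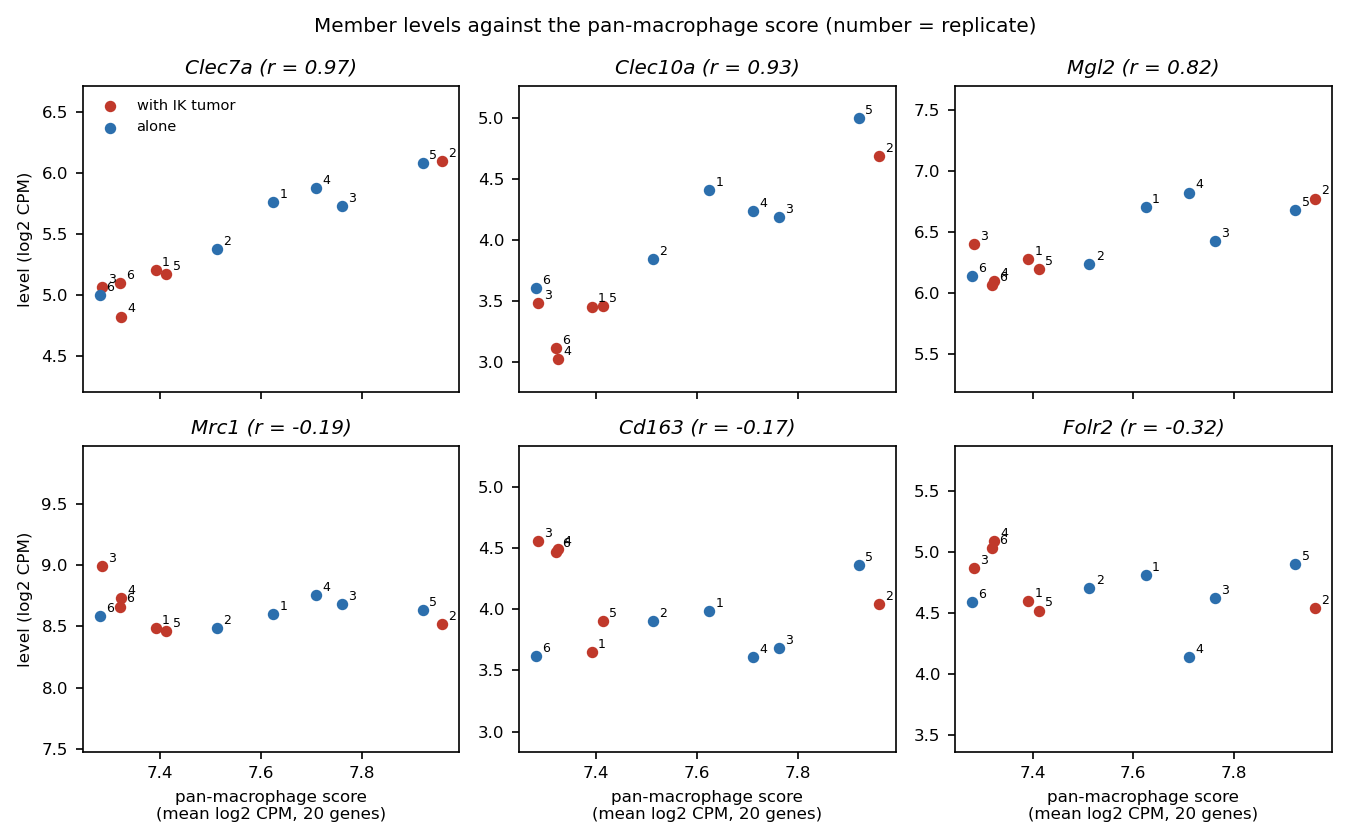
Level of 6 members (log2 CPM, vertical axis, the same span in each panel) against the pan-macrophage score (mean log2 CPM of 20 genes, horizontal axis) in 12 tumors, red with an IK tumor and blue alone, numbered by replicate. Over all 12 tumors Clec7a, Clec10a and Mgl2 climb with the score (r of 0.97, 0.93 and 0.82). Mrc1, Cd163 and Folr2 do not (-0.19, -0.17 and -0.32), but their r differs in sign between the groups. It is -0.46, -0.35 and -0.57 with an IK tumor and 0.51, 0.56 and 0.15 alone, a difference that was not tested.

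Marker lists of other cells differed in the same direction as the lectins. Of 19 dendritic genes, 18 had lower means, with a median of -0.47. They ran from Siglech, of plasmacytoid dendritic cells, at -1.21 and Xcr1, of cross-presenting dendritic cells, at -0.79, to Cd24a at -0.0022 and Sirpa at 0.03. The dendritic score ran from 3.63 to 4.77 with an IK tumor and from 3.75 to 4.93 alone. Means of 11 of 11 monocyte genes were lower (median -0.31, from Ly6c2 at -1.51 to Spn at -0.14 and Nr4a1 at -0.0044), with scores of 3.98 to 5.30 and 4.03 to 5.64. So were those of 15 of 15 T cell and cytotoxic genes (median -1.44), from Gzmb at -2.07 and Gzma at -2.03 to Cd3g at -1.20 and Cd4 at -0.85, with scores of -0.28 to 3.27 and 0.71 to 3.52. None of these genes passed the test. Before adjustment, 15 of 15 T cell and cytotoxic genes had a limma p under 0.05 in the lower direction. So did 5 of 19 dendritic and 2 of 11 monocyte genes, against 5.62% of all genes. Genes of a list share the same tumors, so these are not separate results. The part of other cells in the Clec10a, Clec7a and Mgl2 values was not tested.

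The remaining lists covered stroma, host tissue, neutrophils and tumor cells. Fibroblast and matrix genes had 15 of 16 lower means (median -0.31, Dpt -0.57 and Dcn -0.47 against Fbln1 -0.03 and Fap 0.07), and endothelial genes other than Stab1 12 of 15 (median -0.12, Tek and Kdr both -0.27 against Cldn5 0.13 and Lyve1 0.46). Fat cell genes were lower in 6 of 6 (median -0.96, Cidec -1.82 and Cfd -1.31 against Lipe -0.20 and Plin4 -0.04), and skeletal muscle genes in 9 of 15 (median -0.37, Pvalb -0.59 and Actn3 -0.57 against Myh1 0.50 and Myh2 1.01). Neutrophil genes were lower in 4 of 5 (median -0.21, Csf3r -0.45 and S100a9 -0.34 against S100a8 -0.15 and Mmp9 0.27). Epithelial genes, which mark the tumor cells, were lower in 6 of 8 with a median of -0.04 (Pax8 and Cdh16 both -0.13 against Cldn7 0.05 and Epcam 0.06). None was called, and of the keratinocyte list 0 of 12 genes were analysed.

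Other genes of alternative activation were divided. Of 22 tested, 14 had lower and 8 higher means, with a median of -0.10 and 0 called. The chemokine Ccl8 (-1.0, limma adjusted p = 0.432) and Retnla (-0.90, adjusted p = 0.816), a secreted protein induced by IL-4, were at the lower end, and the transglutaminase F13a1 (0.44, adjusted p = 0.434) and the lipoxygenase Alox15 (0.96, adjusted p = 0.481) at the upper. Retnla varied so much between tumors that its SE was 1.61. Arg1 and Chil3 were not among the genes analysed here. Classical activation genes were lower in 13 of 15 (median -0.21), from the interferon-induced chemokines Cxcl9 (-2.25) and Cxcl11 (-1.79) to Nos2 at 0.10 and Il1b at 0.48, with 0 called.

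Of 24 genes of resident and perivascular macrophages 14 had lower and 10 higher means, with a median of -0.10. At the ends were Hp and Cd209g (-1.11) on the lower side and Lyve1 (0.46, limma adjusted p = 0.654), the hyaluronan receptor, and Fcna (0.63), which encodes ficolin A, on the upper. Fcna had the smallest unadjusted p of these genes, 7.8e-05, with an adjusted p of 0.366, and did not pass.

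**Figure D5:**
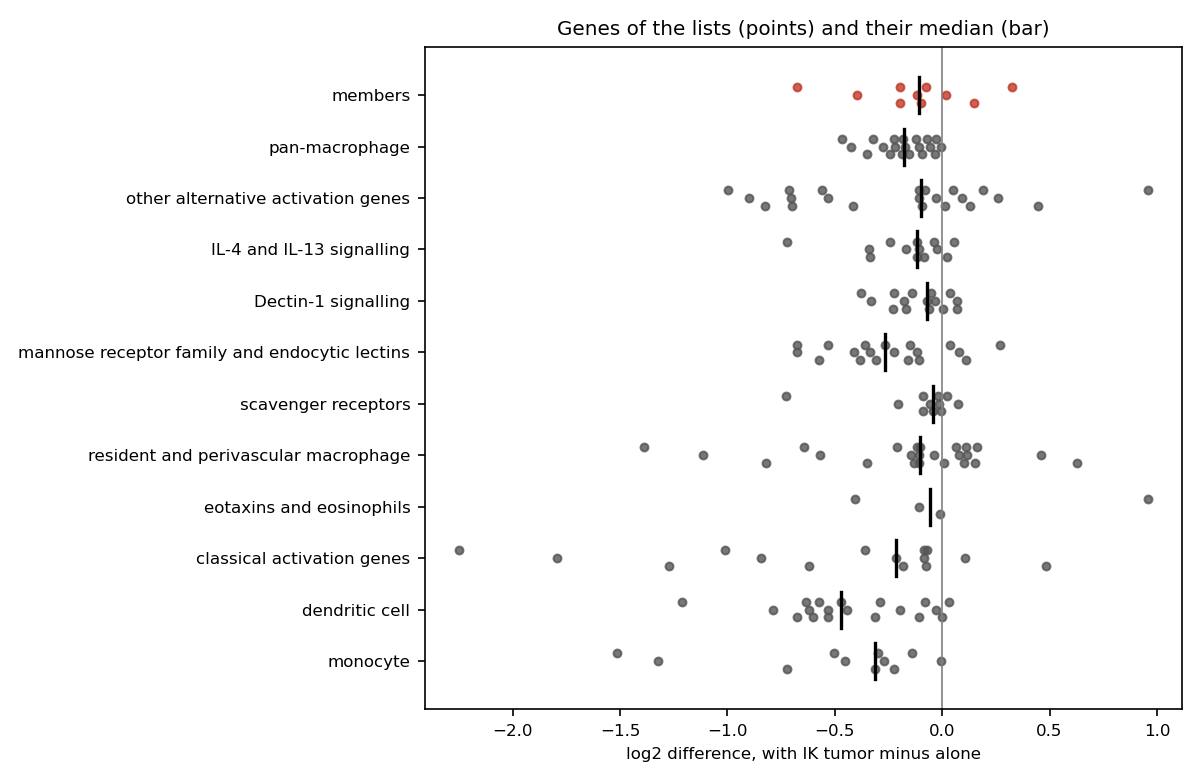
Log2 differences of tested genes, tumors with an IK tumor minus tumors alone (horizontal axis), for the 10 members (red) and for 11 lists without the members (grey), each point a gene and each black bar the median of the list. The member median lies at -0.11, the pan-macrophage median at -0.18 and the dendritic median at -0.47, and alternative activation genes spread from -1.0 to 0.96.

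For each member the 3 other genes with the most similar levels over the 12 tumors were listed by Pearson r, as a description. Clec10a was most like Carmil2 (0.99), Rasal3 (0.98) and Trim30a (0.98), and Clec7a most like Ifnar2 (0.99), Tbxas1 (0.98) and D16Ertd472e (0.98). Mgl2 was most like Jak2 (0.95), a kinase of cytokine receptors, Cd93 (0.95) and Vsir (0.94), and Il4ra most like Psd4 (0.95), Fgfr3 (0.93) and B4galt6 (0.93). Folr2 was nearest to Lmod1 (0.86), Lpcat4 (0.86) and Cbr2 (0.84), a gene of resident macrophages in the list above, and Cd163 to Dmtn (0.87), 2610203C22Rik (0.87) and again Lpcat4 (0.83). Mrc1 was nearest to Med14 (0.96), Nfatc3 (0.95) and Tab2 (0.94), Stab1 to Crb2 (0.86), Srrt (0.82) and Mterf1a (0.80), Msr1 to Gm9025 (0.93), Pgs1 (0.93) and Zfp281 (0.93), and Ccl24 to Rnf151 (0.85), Ttc9 (0.83) and Fam76b (0.79). Some of these values came from 1 group. Stab1 gave 0.99 with Crb2, 0.98 with Srrt and 0.88 with Mterf1a in the IK group, but -0.30, -0.39 and 0.0068 alone. Ccl24 and Fam76b gave 0.15 with an IK tumor and 0.99 alone. With 12 tumors and 14008 genes, high values arise in any such search.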

How the data were processed

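Total RNA of whole tumors (Qiagen RNeasy) was made into Illumina TruSeq libraries, per the labels' protocols. Tools named in the submitters' processing notes are TopHat 1.4.1, CASAVA 1.8.2, limma and HTSeq, and the build is mm9. Strand handling and the annotation release are not given in the sources used here. The deposited values are on a log2 scale for 14496 genes, as the authors left them, in the form of log2 CPM with 0.5 reads added. Whole reads were recovered for 100% of values within 0.001 of a read and summed to 53312559 to 66142468 reads per tumor, so the spread between tumors limits the precision for all but the lowest genes. Symbols were matched by identifier (14004 matched, 492 did not). File coordinates are not given, since the annotation in hand (GENCODE M21) is of another build.

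A filter of log2 CPM 0 or more in 6 or more of the 12 tumors kept 14008 genes and removed 488. The test was limma (version 3.58.1, R 4.3.3; group as the only term, variance trend), two-sided, with Benjamini-Hochberg adjustment over all genes and a threshold of 0.05. The test was first tested on simulated data in which genes varied independently. That setting cannot show how the test behaves where genes vary together, as in these tumors. Correlations used permutation tests; relations with the T cell score were computed and count in the adjustment, but are not given, since tumors fell into separate clusters on it.

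The members, lists and tests were chosen with earlier results of these data known. Named were all members, the 3 genes most like each, 16 partner genes, and the 2 highest and 2 lowest genes of each list by difference. Epx, Prg2, Il4, Il13 and Il13ra2, absent from the genes analysed, were named outside that rule. A few genes that the rule picks are not reported here. Pairs of tumors within a group differed far beyond counting error (13.2 to 164 times, as chi-square over its degrees of freedom, in 30 pairs), and each counted as its own sample. Alternatives tried were filters, scalings, variance models, offsets, weights, a replicate block, covariates and leaving out each tumor.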

Additional observations from a re-analysis of the deposited data

Results flagged for a closer look

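Within each group of 6, a tumor counted as standing apart when its gap to the nearest other tumor exceeded Dixon's 95% critical share of the group's range. Of 60 groups of values examined, 11 met it, where chance gives about 1 in 20, and 10 of the 11 were replicate 2 of the IK group, so they are not separate results. That tumor was the highest of its group in Clec10a (4.68 log2 CPM, the others 3.02 to 3.48) and Clec7a (6.10, the others 4.83 to 5.21). Scores are mean log2 CPM over a list. It was also highest in the scores of pan-macrophage genes (7.96, the others 7.28 to 7.41), dendritic cells (4.77, the others 3.63 to 4.02), monocytes (5.30, the others 3.98 to 4.42) and T cell and cytotoxic genes (3.27, the others -0.28 to 0.82). The same held for the scores of IL-4 and IL-13 signalling (5.57, the others 5.10 to 5.25), Dectin-1 signalling (5.82, the others 5.56 to 5.63), scavenger receptors (5.22, the others 4.82 to 4.95) and the mannose receptor family and endocytic lectins (3.93, the others 3.06 to 3.33). In the other members it did not stand apart by this rule, though it was the highest of its group in Mgl2 (6.77), Msr1 (7.50) and Il4ra (7.25). The remaining one was replicate 6 of the tumors alone, the lowest in skeletal muscle genes (-1.73, the others 2.83 to 4.86).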

How the results depend on the processing

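Over 23 alternative settings, 8 members kept the sign of their difference in each, Clec10a between -0.91 and -0.28 with adjusted p of 0.0394 to 0.766 (limma), Clec7a between -0.56 and -0.08, and Cd163 between 0.25 and 0.43. Mrc1 and Ccl24 did not: Mrc1 turned to -0.018 with array weights and -0.0064 with the pan-macrophage covariate, and Ccl24 to 0.060 with quantile normalization, as did its r with the pan-macrophage score (-0.27). Array weights called 411 genes lower, 134 higher, 1 member (Clec10a, -0.83) and 43 genes of the lists, against 0 of each with equal weights, and 1 gene was called higher without the variance trend. The host tissue covariate was the mean of the muscle and fat scores, with no keratinocyte gene available. Leaving out each tumor in turn, genes called lower ranged from 0 to 146, higher from 0 to 25 and in the lists from 0 to 14, each highest without replicate 2 of the IK group. Mrc1 ranged from -0.054 to 0.052, turning without replicates 3 or 4 of the IK group or replicate 2 alone, and Ccl24 from -0.19 to 0.060, turning without replicate 4 alone. Relations with marker scores that passed, the T cell score included, numbered 23 and ranged from 13 (without replicate 5 alone) to 25. With the pan-macrophage score, r ranged from -0.27 to 0.092 for Mrc1, -0.30 to 0.26 for Stab1 and -0.019 to 0.27 for Ccl24. Same-numbered tumors did not deviate together (r of -0.31 to 0.45, 1 of 12 closest to its own number). With the replicate block 0 genes were called and Clec10a was at -0.68 (adjusted p = 0.445). Causes were not tested. Ccl24, at 98 to 231 reads, is the member most limited by depth.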

Other observations

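Stab1 gave opposite relations to the pan-macrophage score in the 2 groups, with r of -0.68 among the 6 tumors with an IK tumor and 0.82 among the 6 alone. It was not the only such member. The r was -0.46 and 0.51 for Mrc1, -0.35 and 0.56 for Cd163, -0.57 and 0.15 for Folr2 and -0.32 and 0.33 for Ccl24. The differences between the groups were not tested. Without replicate 2 of the IK group the relation of Stab1 over all tumors was 0.26. Between its lowest and highest tumor Clec10a spanned 3.92-fold in CPM, Clec7a 2.41-fold, Ccl24 2.34-fold, Cd163 and Folr2 each 1.93-fold, Msr1 1.77-fold, Mgl2 1.69-fold, Il4ra 1.48-fold, Mrc1 1.45-fold and Stab1 1.34-fold.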
